A study of Mus musculus with 24 samples.

Results

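The genes described here make cholesterol or control its synthesis: Hmgcs1, Idi1, Fdps, Fdft1, Sqle, Lss and Cyp51, which are enzymes, and Insig1, which is a regulator. They were chosen by gene symbol from the tables the authors deposited, and every reporter of a matching transcript was then read on the arrays. Of the 8 genes, 5 (Hmgcs1, Fdps, Sqle, Lss and Cyp51) could be named, through 18 of the 132488 reporters tested. Idi1, Fdft1 and Insig1 were not listed and have no values here. None of the 5 named genes takes cholesterol up into the cell, so that the set as measured is one of synthesis enzymes.

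The arrays compared mouse embryonic fibroblasts (MEFs) that had lost the zinc finger transcription factor E4F1 with control MEFs that kept a single working E4f1 allele. All cells lacked p53, came from 13.5-day embryos of a mixed C57BL/6 and 129Sv/J background, and were collected 3 days after a self-excising retrovirus had delivered the CRE recombinase, controls included. The 4 groups were p53-/- Ha-RasV12 E4F1 -/- cells, p53-/- Ha-RasV12 E4F1 +/- cells, p53-/- E4F1 -/- cells and p53-/- E4F1 +/- cells, each with 3 independent biological replicates called A, B and C. Ha-RasV12 is an oncogenic Ras that a second retrovirus had brought in to transform the cells. Each of the 12 arrays carried the RNA of a knockout culture in one dye and that of a control culture of the same replicate letter in the other, and each pair was hybridised again with the dyes exchanged. Below, Ha-RasV12 cells and p53-/- cells stand for the 2 backgrounds. A ratio is the log2 signal of the knockout minus that of the control on the same array, averaged over both dye orientations. Signals of single samples are given as deposited, without setting the medians of the arrays equal, unless stated otherwise.

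Cells build cholesterol from acetyl-CoA through mevalonate, the isoprenoids, squalene and lanosterol. When sterols run low in the endoplasmic reticulum, the transcription factor SREBP-2 is released from its membrane anchor and raises most enzymes of the pathway together, along with genes of cholesterol uptake, and Insig proteins hold it back when sterols are plentiful. Fibroblasts make their own cholesterol and also take it up from serum. These cells were grown with 10% fetal bovine serum.

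Signals of the members were clear except for a single transcript. All 15 reporters of Cyp51, Fdps, Sqle, Lss and the RefSeq transcript of Hmgcs1 exceeded the 95th percentile of the random control reporters in all 24 channels, while the 3 reporters of a second Hmgcs1 target, a cDNA clone, did so in 5, 22 and 23 channels. Over all reporters the ratios of the dye-exchanged arrays of a replicate correlated at 0.39 to 0.62 in Ha-RasV12 cells and at -0.07 to 0.02 in p53-/- cells. Arrays of different replicates with the same dye orientation correlated at 0.08 to 0.34 and 0.15 to 0.25 in these backgrounds. With the opposite orientation they did so at -0.01 to 0.24 and -0.10 to -0.03. Single-array ratios in p53-/- cells thus followed the dye more than the replicate. Between replicates the dye-averaged ratios correlated at 0.05 to 0.37 in Ha-RasV12 cells and 0.08 to 0.20 in p53-/- cells. E4f1 itself had ratios of -2.24 to -0.10 over 6 reporters in Ha-RasV12 cells, of which 5 were called lower (limma, adjusted p of 0.000125 at the lowest). In p53-/- cells its ratios were -1.38 to -0.16, with 1 reporter called lower (adjusted p = 0.0269). Whether these reporters lie in the exons that CRE removes is not known here. The fibroblast markers Col1a1, Col3a1, Fn1 and Pdgfra were present, and Ptprc, a leukocyte marker, exceeded the random controls in 5.56% of its readings.

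Promoters of Hmgcs1, Lss and Cyp51, the 3 named members with an entry in RefSeq's table, are shown because TCACCNCA, the core of many sterol response elements to which SREBP binds, could be looked for in them. Each is the 250 bases before the gene's start in RefSeq (GRCm38.p6), 5′ to 3′ on the strand of the gene, with matches to TCACCNCA or CCAAT on either strand in capitals. They lie at chr5:4104698-4104947 on the minus strand for Cyp51, at chr13:119690101-119690350 on the plus strand for Hmgcs1, and at chr10:76531355-76531604 on the plus strand for Lss.
Hmgcs1: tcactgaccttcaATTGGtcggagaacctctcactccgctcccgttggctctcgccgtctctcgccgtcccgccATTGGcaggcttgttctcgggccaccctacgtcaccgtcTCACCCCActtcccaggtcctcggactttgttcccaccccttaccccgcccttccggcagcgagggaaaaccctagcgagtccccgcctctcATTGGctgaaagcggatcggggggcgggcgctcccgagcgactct
Lss: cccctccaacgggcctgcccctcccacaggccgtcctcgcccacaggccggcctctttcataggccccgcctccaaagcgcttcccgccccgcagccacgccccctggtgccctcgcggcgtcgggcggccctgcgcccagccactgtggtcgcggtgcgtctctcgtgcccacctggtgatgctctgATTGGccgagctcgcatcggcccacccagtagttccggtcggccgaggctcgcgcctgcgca
Cyp51: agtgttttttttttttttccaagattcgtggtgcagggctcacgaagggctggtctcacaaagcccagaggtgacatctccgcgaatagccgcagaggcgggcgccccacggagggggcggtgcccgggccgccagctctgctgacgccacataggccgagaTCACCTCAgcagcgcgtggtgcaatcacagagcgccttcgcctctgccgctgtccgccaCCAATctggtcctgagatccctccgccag
TCACCNCA was found in the Cyp51 window, 88 to 81 bases before the start, and in the Hmgcs1 window, 137 to 130 bases before it. No match stood in the Lss window, nor in those of Insig1 and Idi1, the members with a promoter entry but no values here. Of all 32851 windows of this length, 3.61% held the motif. CCAAT, bound by NF-Y, which acts beside SREBP on sterol promoters, was found in all 5 windows and in 33.8% of all windows. TGACGT, the core of the ATF and CREB site that E4F1 also recognises, stood in the Hmgcs1 window 148 to 143 bases before the start, in the Insig1 window 241 to 236 bases before it, and in 6.47% of all windows. GGGCGG, the GC box, was found in all 5 windows and in 32.7% of all windows. The 4 motifs overlap nowhere in the 5 windows, and a match of letters is no proof of a bound site.

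In Ha-RasV12 cells the loss of E4F1 came with more Cyp51 mRNA, about 2-fold over control. All 3 Cyp51 reporters rose, with adjusted p of 0.0125 to 0.0319 (limma, Benjamini-Hochberg over all reporters), and no reporter of another member passed the threshold of 0.05. Among all reporters 2.31% were called, 1.44% higher and 0.873% lower. The fit pools the spread of both backgrounds, and the median reporter's SD over replicates was 0.32 in Ha-RasV12 and 0.21 in p53-/- cells. Standard errors, intervals and adjusted p given for Ha-RasV12 cells thus borrow from a background that was quieter at the median reporter. With each background fitted alone 280 reporters were called in Ha-RasV12 cells, against 3061. Of the 18 member reporters, 15 had a ratio above 0 in Ha-RasV12 cells, and the 3 exceptions were those of the dim Hmgcs1 clone. All 3 replicates were above 0 for 14 of the 18 reporters, where 14.6% of all reporters were. The median ratio of the member reporters was 0.45, that of all reporters -0.01. These counts describe the set and do not support it, because 15 of the 18 reporters could be named only through a transcript that the authors' Ha-RasV12 lists had passed; the 3 reporters of the Hmgcs1 RefSeq transcript were named without them.

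**Figure D1:**
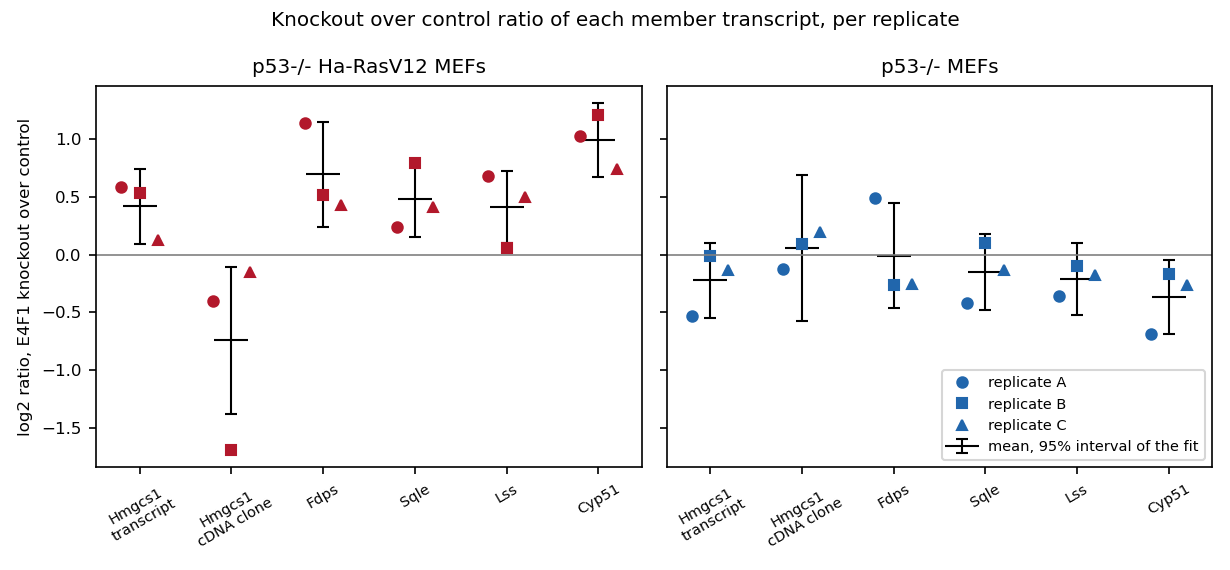
Log2 ratio of knockout over control for each member transcript (y axis, mean over its 3 reporters) in p53-/- Ha-RasV12 MEFs (left) and p53-/- MEFs (right). Coloured points are replicates A, B and C, and black bars are the fitted mean with its 95% interval. Cyp51 had the highest mean in Ha-RasV12 cells, 0.99, and the Hmgcs1 cDNA clone the lowest, -0.74, while the means of the 6 transcripts in p53-/- cells lay between -0.37 and 0.06.

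Hmgcs1, cytosolic HMG-CoA synthase, acts early in the mevalonate pathway. Its RefSeq transcript had log2 signals of 12.20, 12.03 and 11.54 in Ha-RasV12 knockout replicates A, B and C, against 11.61, 11.50 and 11.42 in their controls. The knockout was higher in all 3 pairs, though knockout C lay between controls A and B in these signals, which were not aligned between arrays. With array medians set equal, the group levels were 12.01 ± 0.20 in the knockout and 11.59 ± 0.06 in the control (SD). The order of samples from different arrays can thus depend on that step. The mean ratio was 0.42 (SE 0.14, 95% interval 0.09 to 0.74), and the adjusted p of its reporters was 0.276 to 0.434, so that it was not called. Its ratios were 0.59, 0.53 and 0.13, and within replicate B the 3 reporters ranged from 0.07 to 0.91. The cDNA clone assigned to the same gene went the other way, with log2 signals of 6.72, 6.39 and 7.53 in the knockout and 7.12, 8.08 and 7.68 in the control. Most of that difference came from replicate B, whose ratio was -1.69, against -0.40 in A and -0.15 in C. The 3 clone reporters had adjusted p of 0.0978 to 0.559. Which part of the gene the clone covers is not known here, and the 2 Hmgcs1 targets disagree in sign in Ha-RasV12 cells.

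Fdps, farnesyl diphosphate synthase, makes the isoprenoid from which squalene and the farnesyl anchor of Ras proteins are both derived. Its log2 signals were 14.14, 13.81 and 13.60 in Ha-RasV12 knockout cells and 13.00, 13.29 and 13.17 in controls. Every knockout value lay above every control value. The ratios were 1.14, 0.52 and 0.43, with replicate A over 2 times the other two on the log2 scale, and the mean was 0.70 (SE 0.19, 95% interval 0.24 to 1.15). Its 3 reporters had ratios of 0.78, 0.74 and 0.57 with adjusted p of 0.104, 0.137 and 0.208, none of them called.

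Sqle, squalene epoxidase, carries out the first oxygen-dependent step towards sterols. It had log2 signals of 12.09, 11.96 and 11.57 in Ha-RasV12 knockout cells against 11.86, 11.17 and 11.16 in controls. The knockout was higher in each pair, and control A exceeded knockout C in these signals, which were not aligned between arrays. With array medians set equal, the group levels were 11.96 ± 0.13 in the knockout and 11.48 ± 0.29 in the control (SD). The ratios of 0.24, 0.79 and 0.41 gave a mean of 0.48 (SE 0.14, 95% interval 0.15 to 0.81), with reporter adjusted p of 0.173 to 0.328. Its reporters agreed least in replicate B, where they ran from 0.34 to 1.10.

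Lss, lanosterol synthase, closes the sterol rings. Its log2 signals were 9.79, 8.97 and 9.34 in Ha-RasV12 knockout cells and 9.11, 8.91 and 8.83 in controls. Replicate B barely differed, with a ratio of 0.06, against 0.68 in A and 0.50 in C. The mean ratio was 0.41 (SE 0.13, 95% interval 0.10 to 0.72), and the reporters' adjusted p was 0.218 to 0.427. That SE pools replicate SDs of 0.32 in Ha-RasV12 and 0.13 in p53-/- cells.

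Cyp51 encodes the lanosterol demethylase, the cytochrome P450 that removes a methyl group from lanosterol and opens the last stretch of the pathway. Its log2 signals were 12.65, 11.92 and 11.26 in Ha-RasV12 knockout cells and 11.62, 10.71 and 10.52 in controls. Each knockout exceeded its own control, by 1.03, 1.21 and 0.74. Levels also differed between replicates, from 11.26 to 12.65 in the knockout and from 10.52 to 11.62 in the control, so that knockout C lay below control A. These signals were not aligned between arrays. With array medians set equal, the SD fell from 0.69 to 0.55 in the knockout and from 0.59 to 0.46 in the control. The reporters, numbered in order of their identifiers, had ratios of 0.90, 1.00 and 1.08 (SE 0.17, 0.19 and 0.17), or 1.86-fold, 2.00-fold and 2.12-fold, with adjusted p of 0.0266, 0.0319 and 0.0125 (limma). The single arrays ranged from 0.65 to 1.27, and the 2 dye orientations of a replicate differed by less than the SD between replicates, 0.23. The call rested on pairing the knockout with the control of its own array: with the 12 samples compared as unpaired groups the lowest adjusted p of Cyp51 was 0.326. Without replicate B it was 0.0958, without replicate C 0.121, and with the Ha-RasV12 arrays fitted alone 0.178 (limma).

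**Figure D2:**
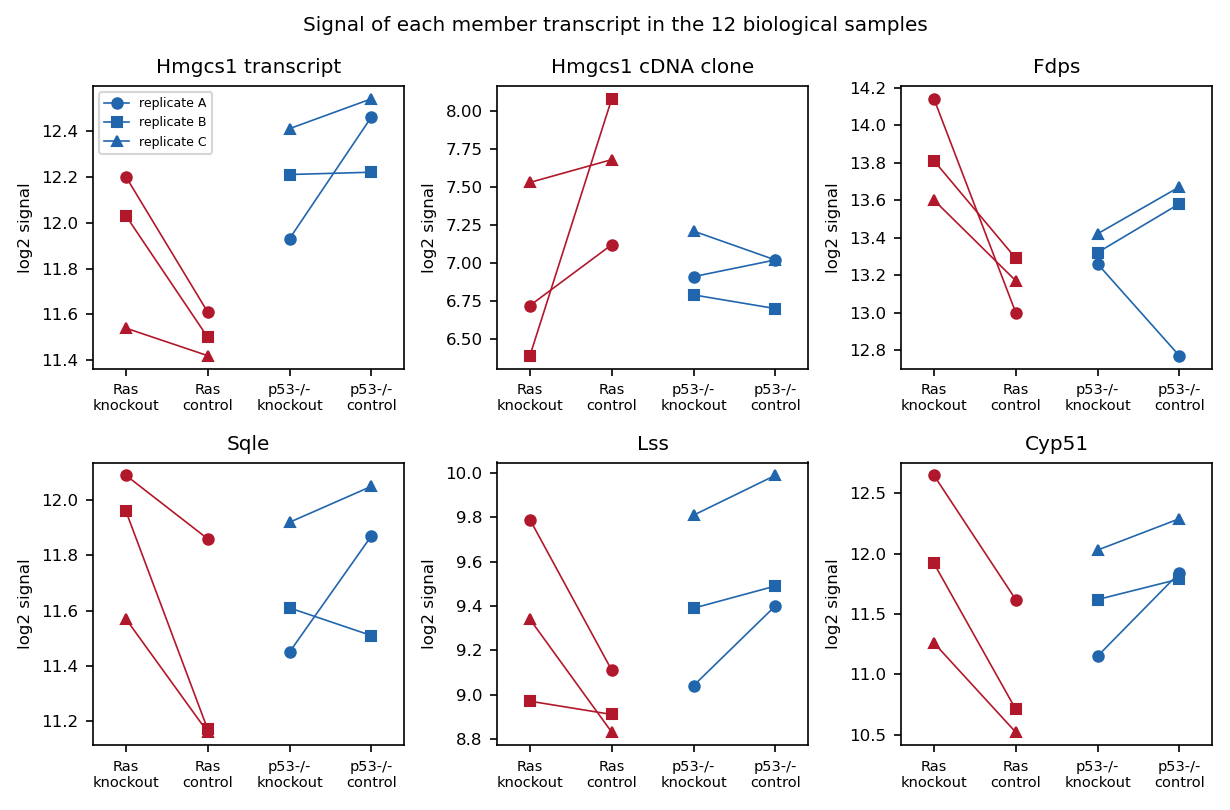
Log2 signal (y axis, mean over reporters and dyes, not aligned between arrays) of each member transcript in knockout and control samples of p53-/- Ha-RasV12 MEFs (red) and p53-/- MEFs (blue). Symbols mark replicates A, B and C, lines join the knockout and control that shared an array, and each panel has its own scale. Fdps in Ha-RasV12 cells had knockout values from 13.60 to 14.14, all above control values from 13.00 to 13.29. For Cyp51 the cultures differed among themselves. Its red lines all join a higher knockout to a lower control, and its blue lines all join a lower knockout to a higher control.

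In p53-/- cells no member was called. Of all reporters 0.0211% were called there, and the smallest adjusted p of a member reporter was 1. At an unadjusted p under 0.05, 2 of the 18 member reporters passed, both of Cyp51, and 2.98% of all reporters did. Ratios were below 0 for 14 of the 18 reporters, all 3 replicates were below 0 for 8 of them, where 15.6% of all reporters were, and the median was -0.18 against 0.00 over all reporters. No p53-/- table of the authors named any member.

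Cyp51 in p53-/- cells had log2 signals of 11.15, 11.62 and 12.03 in the knockout and 11.84, 11.79 and 12.29 in the control. The knockout was the lower of each pair, by ratios of -0.69, -0.17 and -0.26, and the groups overlapped. The reporters' ratios were -0.43, -0.26 and -0.42 (SE 0.17, 0.19 and 0.17), each with an adjusted p of 1. The Hmgcs1 RefSeq transcript had 11.93, 12.21 and 12.41 in the knockout, against 12.46, 12.22 and 12.54 in the control, with ratios of -0.53, -0.01 and -0.13. Sqle gave ratios of -0.42, 0.10 and -0.13, and Lss of -0.36, -0.10 and -0.18. For these 4 transcripts replicate A had the lowest ratio. Fdps differed, with a ratio of 0.49 in replicate A and of -0.26 and -0.25 in B and C. Its mean of -0.01 (95% interval -0.46 to 0.45) therefore joins replicates of opposite sign. The Hmgcs1 clone had -0.12, 0.09 and 0.20.

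**Figure D3:**
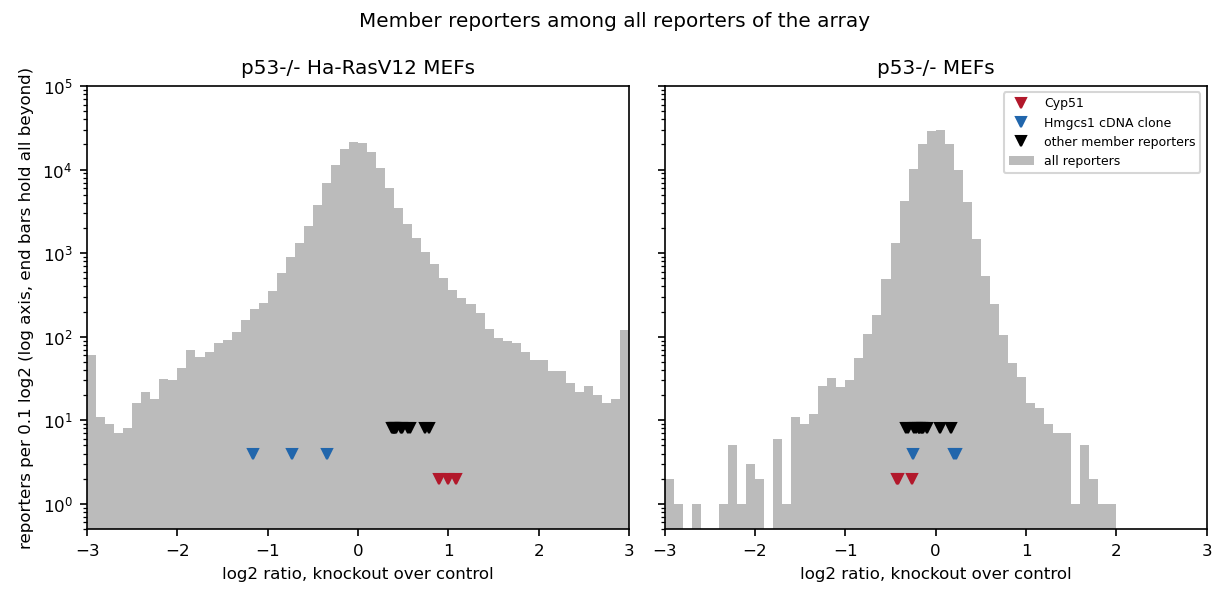
Distribution of the mean log2 ratio of knockout over control (x axis) over all 132488 reporters (grey bars, reporters per bin on a log axis; the end bars hold all values beyond them) in p53-/- Ha-RasV12 MEFs (left) and p53-/- MEFs (right). Triangles mark the 18 member reporters at an arbitrary height. In Ha-RasV12 cells 15 triangles stand right of 0 and in p53-/- cells 14 stand left of it, while the middle 90% of all reporters span -0.50 to 0.56 and -0.30 to 0.30 in these backgrounds.

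The knockout effect on Cyp51 differed between the backgrounds at 1 of 3 reporters. The difference of the ratios, Ha-RasV12 minus p53-/-, was 1.33, 1.27 and 1.5 for its 3 reporters (SE 0.24, 0.28 and 0.24), with adjusted p of 0.0569, 0.124 and 0.0367 (limma), so that reporter 3 was called. Over all reporters 0.429% were called for this difference. The 3 Ha-RasV12 ratios of Cyp51 lay between 0.74 and 1.21 and the 3 p53-/- ratios between -0.69 and -0.17, with no overlap. Of the 6 member transcripts 5 had ratios that did not overlap between backgrounds, where 17.2% of all transcripts did not, and Fdps was the exception. The Hmgcs1 clone was the single one with lower ratios in Ha-RasV12 cells. The mean difference was 0.64 (95% interval 0.18 to 1.10) for the Hmgcs1 transcript, 0.70 (0.06 to 1.34) for Fdps, 0.63 (0.16 to 1.10) for Sqle and 0.62 (0.18 to 1.06) for Lss, and none of their reporters was called, with adjusted p of 0.354 or more. The median difference of the member reporters was 0.64, against 0.00 over all. Apart from the Hmgcs1 transcript, this contrast is not independent of the Ha-RasV12 lists through which the genes were named. Leaving out any replicate ended the call for Cyp51, with lowest adjusted p of 0.126 without A, 0.152 without B and 0.358 without C. It also ended with a replicate block across backgrounds (0.0841), samples compared unpaired (0.765), a trend in eBayes (0.121), the median over reporters (0.0516), and either dye orientation alone (0.121 and 0.0528).

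Across the 4 groups, after each array's median signal had been set equal, the mean log2 level of Cyp51 was 12.03 ± 0.55 in Ha-RasV12 knockout cells, 11.03 ± 0.46 in Ha-RasV12 control cells, 11.52 ± 0.46 in p53-/- knockout cells and 11.89 ± 0.28 in p53-/- control cells (SD, n = 3 each). From high to low the order was Ha-RasV12 knockout, p53-/- control, p53-/- knockout and Ha-RasV12 control, and no neighbours in it lay further apart than their SDs summed. The Hmgcs1 transcript had 12.01 ± 0.20 in Ha-RasV12 knockout cells, 11.59 ± 0.06 in Ha-RasV12 control cells, 12.10 ± 0.27 in p53-/- knockout cells and 12.33 ± 0.14 in p53-/- control cells. Its Ha-RasV12 controls were the lowest group as well, further below their neighbour than the SDs summed. Lss had 9.45 ± 0.36 in Ha-RasV12 knockout cells, 9.04 ± 0.05 in Ha-RasV12 control cells, 9.33 ± 0.41 in p53-/- knockout cells and 9.54 ± 0.33 in p53-/- control cells. Sqle had 11.96 ± 0.13 in Ha-RasV12 knockout cells, 11.48 ± 0.29 in Ha-RasV12 control cells, 11.58 ± 0.26 in p53-/- knockout cells and 11.73 ± 0.25 in p53-/- control cells. For both the Ha-RasV12 controls were again lowest, but neighbours in the order did not differ beyond their SDs. Fdps had 13.93 ± 0.13 in Ha-RasV12 knockout cells, 13.24 ± 0.26 in Ha-RasV12 control cells, 13.25 ± 0.10 in p53-/- knockout cells and 13.25 ± 0.53 in p53-/- control cells, with the Ha-RasV12 knockout above 3 groups of like mean. The dim Hmgcs1 clone had 6.97 ± 0.71 in Ha-RasV12 knockout cells, 7.71 ± 0.58 in Ha-RasV12 control cells, 6.89 ± 0.21 in p53-/- knockout cells and 6.83 ± 0.15 in p53-/- control cells. The backgrounds were never on the same array, and the levels of the 2 backgrounds were not tested against each other.

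The authors' deposited tables hold the members in Ha-RasV12 cells only. The authors' deposited limma table of that background lists 4703 reporters, among them 3 of Cyp51 with log2 fold changes of 0.895 to 1.08 and adjusted p of 0.00447 to 0.0254, and 2 of Fdps with 0.778 and 0.739 and adjusted p of 0.0412 and 0.0438. The authors' deposited SAM list named for 1% gives the same 5 reporters, with q of 0.0298 to 0.0625. The authors' deposited SAM list named for 5% adds Lss with a log2 fold change of 0.413, 2 reporters of Sqle with 0.401 and 0.547, and the Hmgcs1 clone with -1.16, at q of 0.0683 to 0.104. In the authors' deposited p53-/- tables, of 493, 503 and 949 reporters, no member is listed. In the authors' deposited SAM lists named for 5%, the log2 fold changes were equal, within 0.001, to the mean of the 6 array ratios of a background in 100% of reporters, and the standard errors to those of 6 independent arrays. The authors' deposited limma table calls Fdps where the fit of 3 replicates did not. When all 12 arrays were taken as independent, 7.58% of all reporters were called in Ha-RasV12 cells, and 4 members had a called reporter. Cyp51, Fdps and Sqle were higher there, and Hmgcs1 was called only through its cDNA clone, which was lower.

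Of the 14 further enzymes of sterol synthesis reported here, 5 could be named: Acat2, Mvk, Mvd, Nsdhl and Sc5d. In Ha-RasV12 cells 2 of these rose and none fell, with 6 of their 24 reporters called higher, where 1.44% of all reporters were. In p53-/- cells none was called, where 0.0211% of all reporters were. Mvd, mevalonate diphosphate decarboxylase, rose at 4 of 6 reporters, with ratios of 0.73 to 0.83 over all 6 and a lowest adjusted p of 0.0224 (limma). Its first transcript had ratios of 0.89, 0.83 and 0.57 in Ha-RasV12 replicates A to C and of -0.08, -0.28 and -0.13 in p53-/- cells. These did not overlap between the backgrounds, as was so for 17.2% of all transcripts. No Mvd reporter was called for the difference, with adjusted p of 0.0706 to 0.257 (limma). Acat2, the thiolase that starts the pathway, rose at 2 of 6 reporters (0.84 and 0.87, adjusted p = 0.0262 and 0.0212), both of the same transcript. The 4 others had ratios of 0.59 to 0.76. Sc5d, which acts after Cyp51, had ratios of 0.67 to 1.02 with adjusted p of 0.0509 to 0.107, and Nsdhl of 0.68 to 0.84 with 0.11 to 0.239. For both, replicate A lay far below B and C, at 0.02 against 0.82 and 1.39 for Nsdhl. Mvk, mevalonate kinase, had negative ratios of -0.89 to -0.67, with adjusted p of 0.0975 to 0.195. Most of these genes, and those in the next paragraphs, were named through the same Ha-RasV12 lists, and the median of the 5 gene means, 0.74 in Ha-RasV12 and -0.15 in p53-/- cells, is a description of listed genes. Leaving out replicate B or C ended the calls of Acat2 and Mvd, and leaving out A ended that of Mvd while Acat2, Nsdhl and Sc5d were called. Both calls also ended with each background fitted alone and with samples compared unpaired.

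Of the 8 genes of cholesterol uptake and transport inside the cell that are reported here, 5 could be named. None had a called reporter in Ha-RasV12 cells, with a lowest adjusted p of 0.0646 (limma). With the mean over the reporters of a transcript, 1 transcript of Scarb1 was called higher there (0.69, adjusted p = 0.0498, limma), and with the median over reporters no gene of this list was. Scarb1, the scavenger receptor for high density lipoprotein, had 0.39 to 0.74, and Npc1, which exports cholesterol from lysosomes, 0.43 to 0.62. Mylip, a ubiquitin ligase of the lipoprotein receptor pathway, had -0.88 to -0.38, Lrp1 -0.67 to -0.18, and Lipa, the lysosomal lipase, -0.20 to 0.35. None of the 5 was called in p53-/- cells or for the difference.

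Of 6 genes of the SREBP machinery, Scap and Insig2 could be named and neither was called. Insig2, an anchor that retains SREBP in the endoplasmic reticulum, had 0.19, 0.38 and 0.78 at its 3 reporters in Ha-RasV12 cells, the last with an adjusted p of 0.0587, and 0.05 to 0.19 in p53-/- cells. Scap, the escort of SREBP, had -0.03 to 0.36 and -0.12 to 0.00 in these backgrounds, and it was named by its RefSeq accession. Srebf1 and Srebf2 have no value here. Among 6 genes of sterol efflux only Apoe, the lipid carrier, could be named. It was named through the authors' deposited lists and rose in Ha-RasV12 cells at all 6 reporters, where 1.44% of all reporters were called higher. Its ratios were 1.75 to 2.29 there (adjusted p of 0.000473 to 0.00263, limma) and -0.19 to 0.06 in p53-/- cells. The difference was called at all 6 reporters (1.81 to 2.41, adjusted p of 0.00682 to 0.0347, limma), where 0.429% of all reporters were. It was not called without replicate C, with a trend in eBayes (where 0 reporters in all were called for the difference) or with samples compared unpaired. Unpaired, the rise in Ha-RasV12 cells was not called either. None of 6 genes of the non-sterol branch could be named.

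Of 10 fatty acid genes that SREBP also controls, 6 could be named, and 2 rose in Ha-RasV12 cells while none fell, with 7 of their 24 reporters called higher, where 1.44% of all reporters were. Acss2, which makes acetyl-CoA from acetate, rose at all 3 reporters, with ratios of 1.25 to 1.66 and adjusted p of 0.000778 to 0.00763 (limma). Its mean ratio in replicates A to C was 1.92, 1.39 and 1.14 in Ha-RasV12 cells and 0.01, 0.11 and 0.04 in p53-/- cells, and the difference was called at 1 reporter (1.73, adjusted p = 0.0116). Me1, malic enzyme, which supplies NADPH, rose at 4 of 6 reporters (0.78 to 1.06 over all 6, lowest adjusted p = 0.00656). Fasn, fatty acid synthase, had 0.71 to 0.79 and was not called, with a lowest adjusted p of 0.0667. Acly had 0.45 to 0.54, Fads2 0.41 to 0.52 and Scd2 0.47 to 0.50, none of them called. In p53-/- cells none of the 6 was called, and 5 of the 6 gene means were below 0. Without replicate B only Acss2 of the 6 was called in Ha-RasV12 cells, without replicate C none was, and the difference of Acss2 was not called without B or C, with a trend in eBayes or unpaired. With each background fitted alone neither Acss2 nor Me1 was called in Ha-RasV12 cells, and unpaired only Me1 was.

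**Figure D4:**
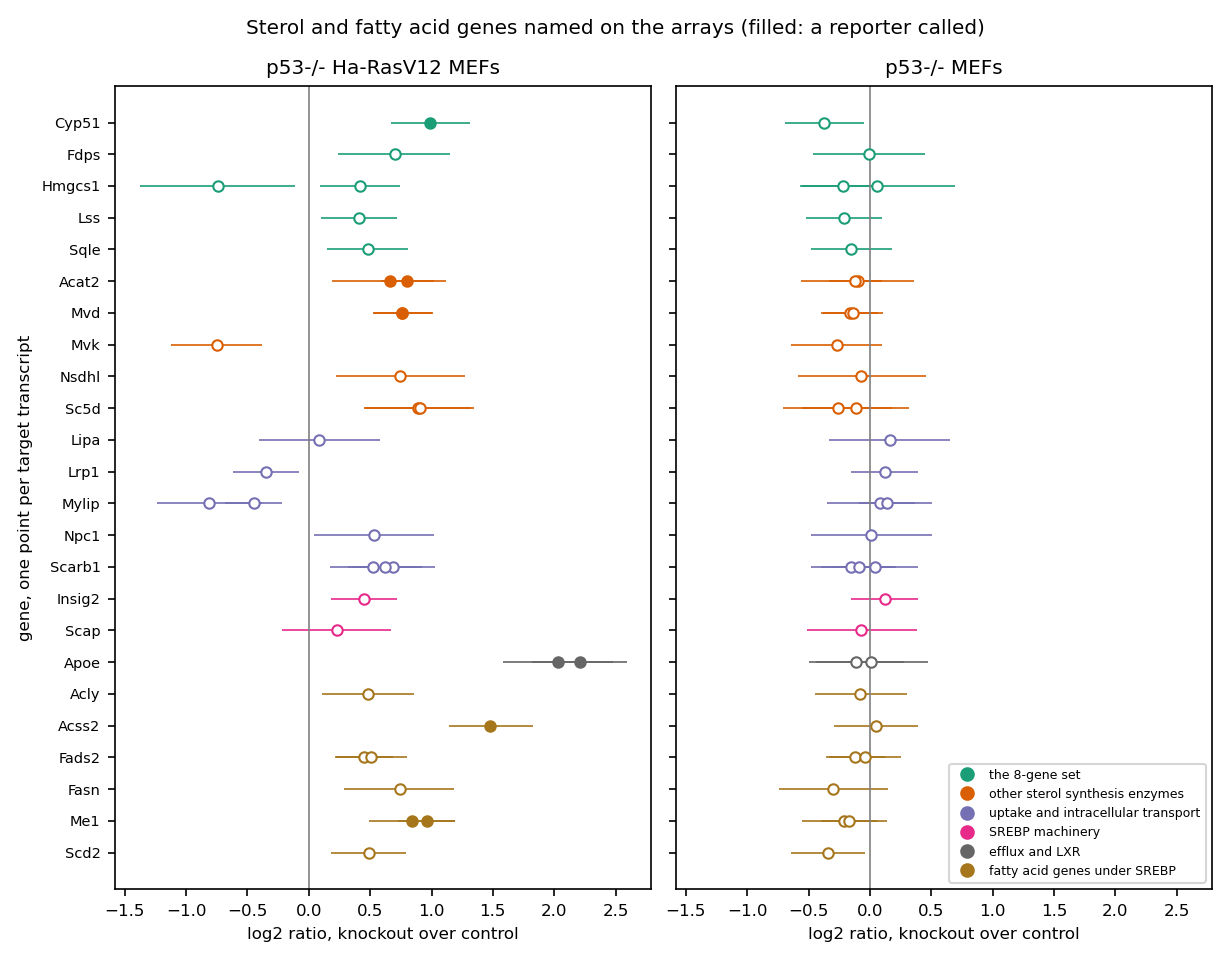
Log2 ratio of knockout over control (x axis) for each named gene of sterol and fatty acid metabolism, in p53-/- Ha-RasV12 MEFs (left) and p53-/- MEFs (right). A point is the mean over the reporters of a target transcript with its 95% interval, colours mark the gene lists, and filled points belong to genes with a called reporter. Apoe and Acss2 lie furthest to the right in Ha-RasV12 cells, Mvk, Mylip, Lrp1 and the Hmgcs1 clone lie left of 0, and no point is filled in p53-/- cells.

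Among markers of other cell types, Epcam was the epithelial one that could be named of 3. In Ha-RasV12 cells it rose at 1 of 6 reporters (0.86, adjusted p = 0.024, limma), where 1.44% of all reporters were called higher. Its log2 level over reporters was 7.84 to 8.34 in Ha-RasV12 knockout cells, 7.36 to 7.64 in Ha-RasV12 control cells, 5.80 to 6.16 in p53-/- knockout cells and 5.67 to 6.03 in p53-/- control cells. Fabp4, the adipocyte marker that could be named of 3, had ratios of -1.0 to -0.85 in Ha-RasV12 cells (adjusted p of 0.0588 to 0.139) and levels of 10.22 to 10.87 in the knockout against 10.93 to 12.66 in the control. Ptprc was the macrophage marker that could be named of 4, with levels of 5.69 to 6.11 in Ha-RasV12 knockout and 5.65 to 6.28 in Ha-RasV12 control cells. Of 8 fibroblast markers 4 could be named, all through the authors' deposited lists, and 3 had a called reporter in Ha-RasV12 cells. Of the 24 reporters of these 4 markers 7 were called higher and 3 lower, where 1.44% and 0.873% of all reporters were. Fn1, fibronectin, rose at 5 of 6 reporters (up to 1.67) and Pdgfra, a growth factor receptor, at 2 of 12 (lowest adjusted p = 0.0196, limma; -0.32 to 1.20 over all 12), while Col3a1, a collagen chain, fell at all 3 (-1.99 to -1.63). The part of any change in cell makeup in the values of the sterol genes was not tested, and in bulk RNA fewer cells of a type and less RNA per cell cannot be told apart.

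Across the 12 samples, 4409 named genes outside the set were ranked by the Pearson correlation of their centred log2 level with the mean of the 5 named members. The highest were 4930522L14Rik (0.97), Mki67 (0.95), Gm9735 (0.93), Gm9292 (0.91) and Golim4 (0.91), as a description over samples that share arrays in pairs. Mki67, the proliferation marker, had mean ratios of 0.39 in Ha-RasV12 and -0.14 in p53-/- cells. Among the members themselves the correlation with their mean was 0.88 for Cyp51, 0.87 for Lss, 0.83 for Sqle, 0.69 for Fdps and 0.05 for Hmgcs1, whose 2 targets were averaged here. Each member is itself part of that mean, which raises its value, so that these are not comparable with those of the outside genes.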

How the data were processed

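Total RNA of 12 MEF samples was amplified and coupled to Cy3 and to Cy5 for 12 arrays of 2 channels each, per the labels' protocols. The authors deposited intensities of 24 channels for 137488 reporters, on a linear scale, with background correction and normalization not given in the sources used here. Submitters' processing notes name limma, without a version. The authors' deposited tables hold log2 fold changes, moderated t and SAM scores, and p-values, adjusted p-values or q-values. Their SAM standard errors are those of 6 arrays per background taken as independent, dye exchanges included.

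Here log2 ratios of knockout over control were taken within arrays and dye exchanges averaged, which left 3 ratios per background. Both backgrounds entered a single limma fit over 132488 reporters (5000 random controls left out), with Benjamini-Hochberg adjustment and a threshold of 0.05. That fit gives both backgrounds of a reporter 1 shared spread, although the median reporter's SD was larger in Ha-RasV12 cells (0.32) than in p53-/- cells (0.21). A shared array pairs knockout and control, per the titles. Deviations of such pairs correlated at -0.06 to 0.49 in Ha-RasV12 and 0.59 to 0.63 in p53-/- cells. Their levels were not aligned between arrays, so that shared array effects enter this correlation and it cannot show whether the cultures themselves pair. Replicate letters were not taken to pair the backgrounds. Deviations of the ratios of the same letter correlated at -0.10 to 0.02. What knockout and control of a letter share cancels in a ratio, so that this cannot show whether the letters pair. Replicates are independent per the labels.

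No table names every reporter, so the fit was per reporter and not per gene. Of 44170 target transcripts 5052 were named through the deposited tables and 803 by RefSeq accession (GRCm38.p6), or 13.3% in all. Members, gene lists and tests were chosen with earlier results of these data known, and the 4 motifs after their windows had been read. Named genes were all members, Srebf1, Srebf2, Scap and Insig2, other list genes with a call, and the 5 genes most like the members; list genes named beyond that were chosen after their values were seen. Some genes of these lists are not reported here. All 24 per-sample columns were used. The number of arrays limits the precision. The fit was tested on simulated data that had the same spread in both backgrounds, so that this cannot show how unequal spreads affect the calls. R 4.3.3, limma 3.58.1, statmod 1.5.0, Python 3.11.15, pandas 2.3.3, numpy 2.4.6 and matplotlib 3.10.9 were used. Alternatives were other normalizations, filters, thresholds, summaries over reporters, fits and left-out replicates.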

Additional observations from a re-analysis of the deposited data

Results flagged for a closer look

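For 5 genes named above the knockout effect differed between Ha-RasV12 and p53-/- cells at 1 or more reporters, by a limma test of the difference itself (adjusted over all reporters). Of all reporters 0.429% were called for it, and with a trend in eBayes 0 were. The reporter with the lowest adjusted p is given for each gene. Called were 1 of 3 reporters of Cyp51, 1 of 3 of Acss2, 6 of 6 of Apoe, 4 of 6 of Fn1 and 3 of 3 of Col3a1. Cyp51 reporter 3 had a difference of 1.5 (adjusted p = 0.0367), Acss2 reporter 2 of 1.73 (adjusted p = 0.0116) and Apoe reporter 2 of its second transcript of 2.41 (adjusted p = 0.00682). Fn1 reporter 2 had 2.2 (adjusted p = 0.016) and Col3a1 reporter 1 had -2.12 (adjusted p = 0.0324). These genes were named through lists chosen on the Ha-RasV12 values. With 3 replicates a group, no single sample was tested for standing apart.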

How the results depend on the processing

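In Ha-RasV12 cells 10 of 18 alternatives called Cyp51 alone, as reported. The exceptions were an adjusted p under 0.01 (0 members), an adjusted p under 0.1 (2, with 1 reporter of the Hmgcs1 clone, which was lower), each background fitted alone (0), 12 arrays taken as independent (4), 12 arrays with a dye term and duplicate correlation (3), no replicate block (0) and replicates left out in turn (0 to 1). In p53-/- cells all 18 alternatives called 0 members. They called only 0 to 183 reporters or transcripts of the whole array there, so that 0 of 18 member reporters says little about stability. For the difference between backgrounds 8 of 18 kept 1 member, and the count was 0 with an adjusted p under 0.01, the median over reporters, a trend in eBayes, no replicate block, the replicate block across backgrounds (lowest adjusted p of Cyp51 0.0841), knockout labelled Cy5 alone, knockout labelled Cy3 alone, and any replicate left out (0 to 0). Over the alternatives the lowest adjusted p of Cyp51 ranged from 5.24e-05 to 0.326 in Ha-RasV12 cells and from 0.000172 to 0.765 for the difference. Of the authors' deposited Ha-RasV12 tables the limma table lists 2 members, the SAM list named for 1% lists 2 and that named for 5% lists 5. No called value of a member changed sign; 7 of 300 member values did, all of Fdps or the Hmgcs1 clone in p53-/- cells and within 1 SD. Genome-wide counts of called reporters in Ha-RasV12 cells ranged from 280 with each background alone to 10045 with 12 arrays as independent, against 3061. The cause of these changes was not tested. Of the Hmgcs1 clone, 1 reporter exceeded the random controls in only 5 of 24 channels.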
